A study of Mus musculus with 16 samples.

Results

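Wounds of female db/db mice treated with estrogen were compared with untreated wounds of female db/db mice on the arrays labelled day 14. The comparison rests on 4 arrays of the 16 in the series, 2 of the db/db + estrogen group and 2 of the db/db group, chosen by their labels alone. The db/db mice (C57BLKS/J, 10 weeks old) lack a working leptin receptor and develop obesity and diabetes. In the db/db + estrogen group, the wounds received 0.75 μg/g/day of estradiol benzoate, dissolved in sesame oil, every day, whereas the db/db group received neither hormone nor oil. The 2 arrays of the db/db + vehicle group of the same labelled day, which received the oil alone, are shown beside the results, because estrogen and oil cannot be told apart against untreated wounds. RNA came from whole wounds with the intact skin around them. The labels do not say whether replicates came from separate mice, so p-values measure only the spread between these arrays, which may be technical. The study's own tables place this comparison under the other sampling day, and days are given here as labelled.

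Estradiol acts through the estrogen receptors encoded by Esr1 and Esr2, transcription factors that bind DNA once the hormone is bound. Among their best known targets are Pgr, the progesterone receptor, and Greb1, a cofactor of the receptor. In skin, keratinocytes, fibroblasts and macrophages carry these receptors, and estrogen is known to dampen the inflammatory phase of wound repair. Type I interferons act through the receptor pair Ifnar1 and Ifnar2 and factors such as Stat2 and Irf9, which switch on a broad antiviral program.

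Signals are given as normalized log2 signal, where 0 is the 75th percentile of the array. No spot was saturated, between 70.1% and 75.9% of the probes were well above background on the 6 arrays of the 3 db/db groups, and the 75th percentile ran from 2034 to 2548 intensity units. Krt14 and Krt5, keratins of the basal epidermis, and Col1a1, the main collagen of dermis, lay at 5.46, 6.03 and 6.28 or more on these 6 arrays. Xist was between −2.47 and −0.22 on the 16 arrays, and the Y-linked Ddx3y was well above background on 1 of the 16 and on none of these 6. A probe was called when limma gave an unadjusted p below 0.05 and a fold change above 2, the thresholds of the study, and calls that also had an adjusted p below 0.05 are given separately. For a single value, 2 arrays against 2 cannot reach an exact permutation p below 0.333, and limma estimates its spread from all 8 groups of the series.

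The 2 estrogen arrays stood apart from each other. They differed by more than 2-fold at 10.1% of the 28245 probes tested, against 2.63% for the 2 db/db arrays and 3.15% for the 2 vehicle arrays. Estrogen 1 lay more than 2-fold above the db/db mean at 1799 probes and below it at 1275, whereas estrogen 2 did so at 1061 and 788. Estrogen 1 shared a slide with both db/db arrays and vehicle 1, and estrogen 2 shared a slide with vehicle 2 and the WT arrays, so that slide and estrogen array cannot be told apart. For this reason each estrogen array is shown singly, and the comparison without estrogen 2 is also the comparison within a slide. Where a gene is given a value without 1 of the 4 arrays, its call was lost there unless it is said to be still called.

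In all, 1105 probes were called, 722 of them higher with estrogen (2.56% of all tested) and 383 lower (1.36%). Of these, 28 also passed the adjusted threshold (0.0991% of all tested), 27 higher and 1 lower, and they comprised 23 probes of 21 named genes and 5 probes without a gene symbol. The median log2 fold change over all probes tested was 0.05, with a median standard error of 0.24. At 313 of the 1105 called probes the 2 estrogen arrays differed by more than 2-fold. Without estrogen 2 the number of calls was 1984, of which 54.8% were higher, in place of 65.3%. The number past the adjusted threshold was 8 without estrogen 2, 59 without estrogen 1, and 10 without db/db 1 or db/db 2.

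**Figure D1:**
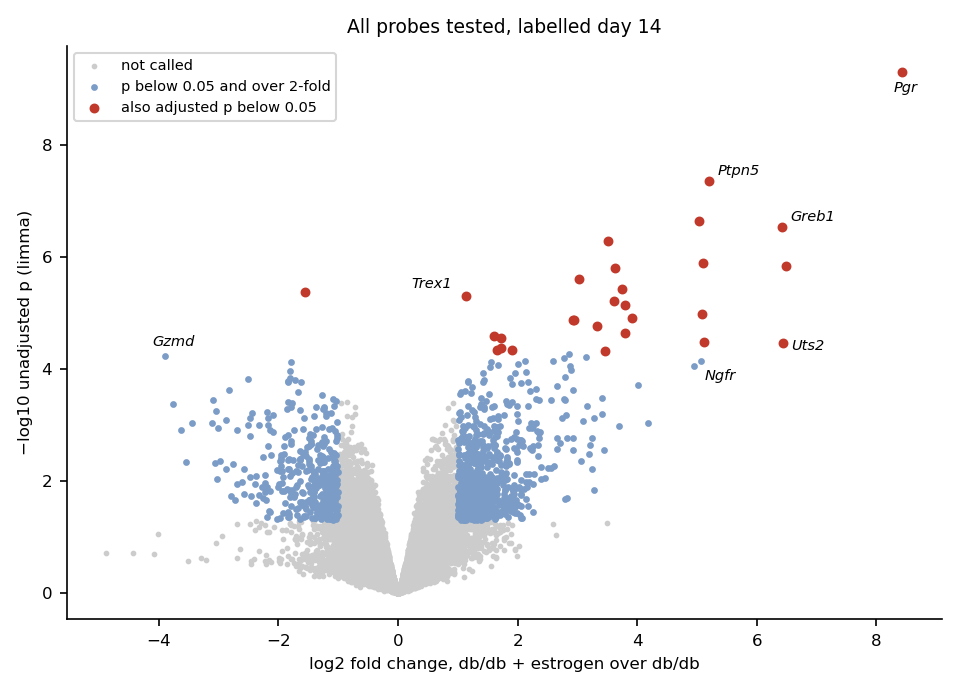
Log2 fold change of db/db + estrogen over db/db (x axis) against −log10 of the unadjusted limma p (y axis) for the 28245 probes tested on the arrays labelled day 14, with grey for probes not called, blue for an unadjusted p below 0.05 and over 2-fold, and red for those that also had an adjusted p below 0.05. Of the 28 red points 27 lie to the right, with Pgr at the upper right.

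On the 2 db/db arrays the probe A_55_P2095663 stood at −9.66 and −9.14, not well above background, and on the estrogen arrays at −1.31 and −0.63. Pgr was thus at least 78.2-fold higher with estrogen (adjusted p = 1.38e-05). For this bound a db/db array counts at its dimmest signal well above background, or at the signal of the probe if that is brighter. Here and beside every other bound, the adjusted p tests the fitted difference, which uses dim signals as measured, and not the bound. The other Pgr probe, A_51_P213476, gave at least 11.3-fold (adjusted p = 0.0192). The vehicle arrays were high as well, at −2.45 and −1.53, at least 38.5-fold above db/db (adjusted p = 4.98e-05). Both estrogen arrays lay above both vehicle arrays, by 1.02 ± 0.36 on the log2 scale (SE, adjusted p = 0.873). The WT arrays of the same labelled day, at −9.84 and −9.19, were not well above background.

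Greb1 followed the same order of groups. It measured −4.66 and −3.85 in db/db, 2.01 and 2.33 with estrogen and 0.50 and 1.87 with vehicle. The change from db/db to estrogen was 6.43 ± 0.53 on the log2 scale (SE, adjusted p = 0.00206), or 86.0-fold, and the other Greb1 probe gave 3.52 ± 0.31 (adjusted p = 0.00296). The difference between estrogen and vehicle was 0.98 ± 0.53 (adjusted p = 0.873). The estrogen and db/db arrays did not overlap, and vehicle 2 lay close to estrogen 1.

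The receptors themselves were not called. Esr1 stood at −2.27 and −2.79 in db/db and −2.04 and −1.34 with estrogen, a difference of 0.85 ± 0.36 (adjusted p = 0.527) that stayed below 2-fold. Esr2 stood at −0.02 and 0.16 in db/db and 0.73 and −0.05 with estrogen, so that the groups overlapped. The 16 receptors and known targets, all of them tested, had a median of 0.25 with estrogen and 0.40 with vehicle, each against db/db. Between estrogen and vehicle their median was −0.07, with 1 called higher and none lower, where 0.507% of all probes were called higher. Against db/db, vehicle had 4 called higher and none lower, where 5.31% of all probes were called higher. Estrogen had 3 called higher and none lower, where 2.56% of all probes were called higher. The third was Areg, a ligand of the epidermal growth factor receptor, which rose from −1.90 and −1.09 to 0.20 and −0.70, by 1.25 ± 0.46 (adjusted p = 0.446). Areg was 0.80 without estrogen 1 and 0.85 without db/db 1. Myc and Ccnd1, which drive the cell cycle, the stress factor Xbp1, the growth factor Igf1 and the receptor cofactor Nrip1 differed by −0.05, −0.11, 0.11, 0.22 and 0.17, and were not called. Without estrogen 2, 5 members were called in place of 3.

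Ptpn5, a tyrosine phosphatase best known from brain, stood at −4.73 and −4.26 in db/db, 0.63 and 0.80 with estrogen and −0.34 and 0.53 with vehicle. It rose by 5.21 ± 0.35 (adjusted p = 0.000613), or 37.0-fold. Uts2, which encodes the vasoactive peptide urotensin 2, was not well above background in db/db, at −9.78 and −9.27, and stood at −3.50 and −2.69 with estrogen. Uts2 was at least 17.9-fold higher with estrogen (adjusted p = 0.0409), while the vehicle arrays lay far apart, at −6.98 and −3.19. Adamts19, a secreted metalloprotease, rose by 5.12 ± 0.71 (adjusted p = 0.0397), although 1 of the 2 db/db arrays did not measure it above background. Adamts19 was still called without db/db 2, at 3.93, and without db/db 1, at 6.30. Akr1c14, a hydroxysteroid dehydrogenase, rose by 3.91 ± 0.49 (adjusted p = 0.0212), and Bmp8a, a ligand of the bone morphogenetic protein family, by 3.74 ± 0.41 (adjusted p = 0.0106). Akr1c14 was still called without db/db 1, at 4.59, and without db/db 2, at 3.22.

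Further genes past the adjusted threshold were higher with estrogen too. Gabra2, a receptor subunit for the transmitter GABA, was at least 2.72-fold higher, Dscam, an adhesion molecule of neurons, at least 9.87-fold, Nexmif at least 5.07-fold and 4933402J15Rik at least 11.3-fold. After normexp background correction Gabra2 and Nexmif were not called. Tmem229a, Papln and Samd5 rose by 3.04, 2.94 and 1.72. Trex1, an exonuclease that degrades cytosolic DNA, rose from 2.34 and 2.47 to 3.41 and 3.67, by 1.13 ± 0.13 (adjusted p = 0.0118). Of the 27 higher probes, 24 were well above background on both vehicle arrays, and at 24 both vehicle arrays lay above both db/db arrays. Against the same db/db arrays, vehicle had 5.31% of 29044 probes called higher and 2.2% lower. Between estrogen and vehicle, calls made up 0.507% of 28976 probes in the higher and 0.476% in the lower direction, and 0 probes passed the adjusted threshold in limma, although 1558 had an unadjusted p below 0.05.

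The remaining 3 of the 27 probes were well above background on both estrogen arrays and on no vehicle array. Olfr792, an olfactory receptor gene, stood at −9.77 and −9.27 in db/db, −6.10 and −5.68 with estrogen and −8.48 and −9.51 with vehicle. Olfr1303, of the same family, stood at −9.75 and −8.63, −5.54 and −5.91 and −9.65 and −9.53, respectively. The gene listed as ccdc198 stood at −9.77 and −8.95, −5.94 and −5.18 and −9.64 and −9.51. All of them were dim with estrogen, on arrays whose lowest signal well above background was between −7.52 and −6.996. They were higher with estrogen than in db/db by at least 2.58-fold, 2.90-fold and 3.25-fold (adjusted p = 0.00565, 0.0488 and 0.0146). Against vehicle the bounds were 2.90-fold, 3.25-fold and 3.65-fold (adjusted p = 0.0943, 0.186 and 0.0943). All of these adjusted p-values belong to the fitted differences. After normexp background correction none of the 3 was called.

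**Figure D2:**
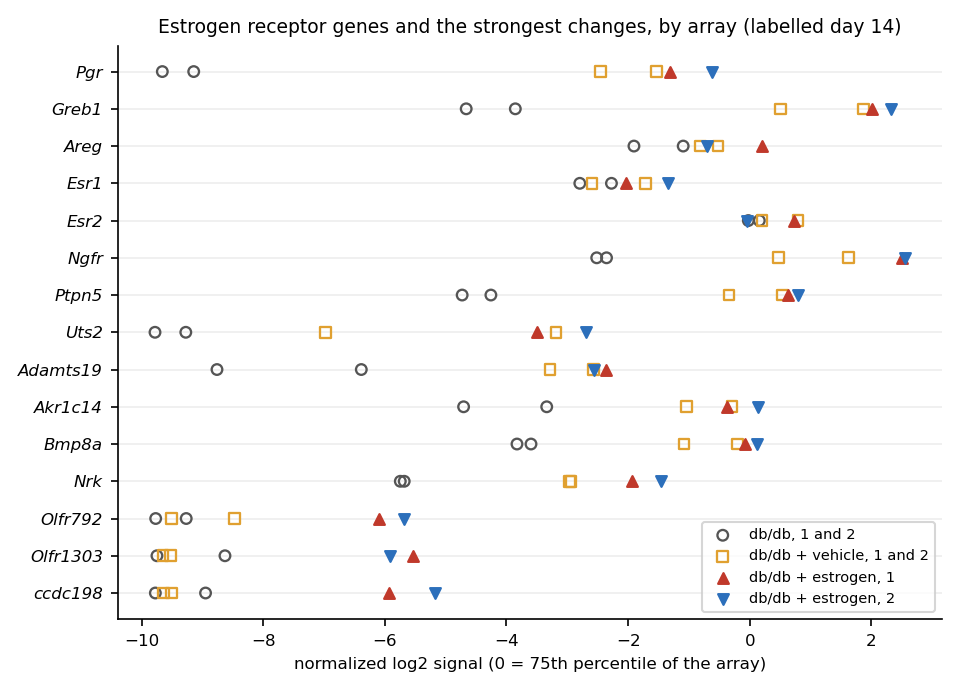
Normalized log2 signal (x axis, 0 is the 75th percentile of the array) of estrogen receptor genes and of genes with large changes on the arrays labelled day 14, with 1 symbol for each array (circles db/db, squares vehicle, upward triangles estrogen 1, downward triangles estrogen 2). For Pgr and Greb1 the vehicle arrays lie beside the estrogen arrays, whereas for Olfr792, Olfr1303 and ccdc198 they lie with db/db.

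Ngfr, the p75 receptor for neurotrophins, which marks Schwann cells and parts of the hair follicle, stood at −2.36 and −2.52 in db/db, 2.50 and 2.54 with estrogen and 0.48 and 1.63 with vehicle. It rose by 4.96 ± 0.78 (adjusted p = 0.0611), and the 2 estrogen arrays lay close together. It was the 1 gene called of the 17 tested markers of nerve and Schwann cells, whose median was −0.20. Nrk, a kinase gene, rose by 4.02 ± 0.70 (adjusted p = 0.0875), from −5.75 and −5.68 to −1.93 and −1.45. Defb3, an antimicrobial defensin of epithelia, rose by 3.25 ± 0.77 (adjusted p = 0.203), with both vehicle arrays above both estrogen arrays. Defb3 was still called without estrogen 1, at 2.31, and without estrogen 2, at 4.19. Pla2g4d, a phospholipase, rose by 3.25 ± 0.94, but was 2.30 without db/db 1 and 2.35 without estrogen 1.

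Among the interferon-induced antiviral effectors, 25 of the 49 tested were called higher and none lower, where 2.56% of all probes were called higher. These were the most calls of the 41 lists, in the list with the most genes tested. The share called was 51.0%, against 53.8% for the glandular kallikreins. The median of the effectors was 1.08 against 0.05 over all probes. It was 0.70 on estrogen 1 and 1.32 on estrogen 2, and 47 of the 49 were higher on estrogen 2. The number called was 13 without estrogen 2 and 29 without estrogen 1. Against the same db/db arrays, vehicle had a median of 0.48 with 7 called higher, where 5.31% of all probes were. Between estrogen and vehicle the median was 0.58, with 9 called higher and none lower, where 0.507% of all probes were called higher.

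The promoters of these genes often hold the interferon-stimulated response element, a site bound by the complex that holds Stat2 and Irf9. The letters TTTCNNTTTC, searched on both strands, were found in the promoters of 26 of the 47 effectors in the RefSeq table (55.3%, GRCm38.p6, 250 bases before to 50 after the start), against 3.99% of all 27025 genes. Of the 22 effectors called higher with a promoter in the table, the letters were held by 14, and of the 21 tested and not called higher by 9. The palindrome bound by estrogen receptors, GGTCANNNTGACC, was in none of the 47 and in 0.074% of all genes. It was also in none of 14 promoters of the estrogen receptor list. With a palindrome this rare, small sets would mostly hold none at the share of all genes too, so its absence tells nothing. The 3 called effectors of largest fold change among those with the letters are shown, with the matches in capitals, for Ifit1 at chr19:34640639-34640938 (+ strand), Ifit3 at chr19:34583279-34583578 (+ strand) and Oas3 at chr5:120777610-120777909 (- strand).
Ifit1: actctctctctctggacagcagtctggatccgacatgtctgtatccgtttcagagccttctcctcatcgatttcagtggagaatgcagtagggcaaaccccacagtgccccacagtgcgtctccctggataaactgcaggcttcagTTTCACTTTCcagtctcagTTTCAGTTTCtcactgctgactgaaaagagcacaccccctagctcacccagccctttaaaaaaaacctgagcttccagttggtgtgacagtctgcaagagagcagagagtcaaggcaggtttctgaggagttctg
Ifit3: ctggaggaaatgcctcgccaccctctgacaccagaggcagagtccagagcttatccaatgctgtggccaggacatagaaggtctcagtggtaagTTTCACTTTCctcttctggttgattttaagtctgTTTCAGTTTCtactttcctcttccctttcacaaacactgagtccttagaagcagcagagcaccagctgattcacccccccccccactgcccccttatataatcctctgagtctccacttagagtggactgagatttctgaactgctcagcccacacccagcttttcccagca
Oas3: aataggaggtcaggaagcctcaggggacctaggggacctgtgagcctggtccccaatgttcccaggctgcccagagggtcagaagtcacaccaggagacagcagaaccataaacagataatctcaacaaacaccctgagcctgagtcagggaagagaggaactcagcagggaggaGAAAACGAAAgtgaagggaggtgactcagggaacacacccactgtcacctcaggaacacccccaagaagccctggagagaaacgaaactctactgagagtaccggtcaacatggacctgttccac
Ifit1 and Ifit3 held the letters at 2 places each and Oas3 at 1.

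These 3 genes encode proteins that sense or trap viral RNA. Ifit1 stood at −3.01 and −2.97 in db/db, −1.30 and −0.06 with estrogen and −0.98 and −2.49 with vehicle, and rose by 2.31 ± 0.49 (adjusted p = 0.161). Ifit3 rose by 1.83 ± 0.49, from −0.87 and −0.92 to 0.00 and 1.86, and Oas3 by 1.80 ± 0.45, from −4.21 and −4.30 to −3.07 and −1.84. On estrogen 1 alone, Ifit3 lay less than 2-fold above each db/db array. Oas2, which like Oas3 makes the messenger that activates an RNA-cutting enzyme, stood at −0.92 and −1.34 in db/db, 0.95 and 1.51 with estrogen and 0.26 and 0.11 with vehicle. Oas2 rose by 2.36 ± 0.44 (adjusted p = 0.118) and was 1.05 ± 0.44 above vehicle (adjusted p = 0.873). For Ifit1 and Oas2 the estrogen and db/db arrays did not overlap, and estrogen 2 was the highest of the 6 arrays. Ifit1 was still called without estrogen 1, at 2.93, and without estrogen 2, at 1.69. These near-identical families can share probe signal, so single members are uncertain, and the count of effectors called can hold shared signal.

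Oasl1 was the effector that passed the adjusted threshold. It stood at 0.44 and 0.17 in db/db, 1.86 and 2.57 with estrogen and 1.75 and 1.33 with vehicle, and rose by 1.91 ± 0.28 (adjusted p = 0.0486). Ifi27l2a rose by 2.20 ± 0.48 (adjusted p = 0.173), and its estrogen arrays, at 4.603 and 5.17, lay about its vehicle arrays, at 4.95 and 4.78. Cmpk2, a mitochondrial nucleotide kinase, rose by 1.98 ± 0.39 and Rsad2, which encodes viperin, by 1.79 ± 0.45. Without estrogen 1 Cmpk2 was 2.71 and without estrogen 2 1.26, still called both times. The ubiquitin-like modifier Isg15 stood at 1.77 and 1.67, 2.64 and 3.97 and 2.54 and 1.87, and rose by 1.59 ± 0.39 (adjusted p = 0.211). On estrogen 1 alone, Isg15 lay less than 2-fold above each db/db array. At 15 of the 49 effectors, Isg15 included, the 2 estrogen arrays differed by more than 2-fold.

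**Figure D3:**
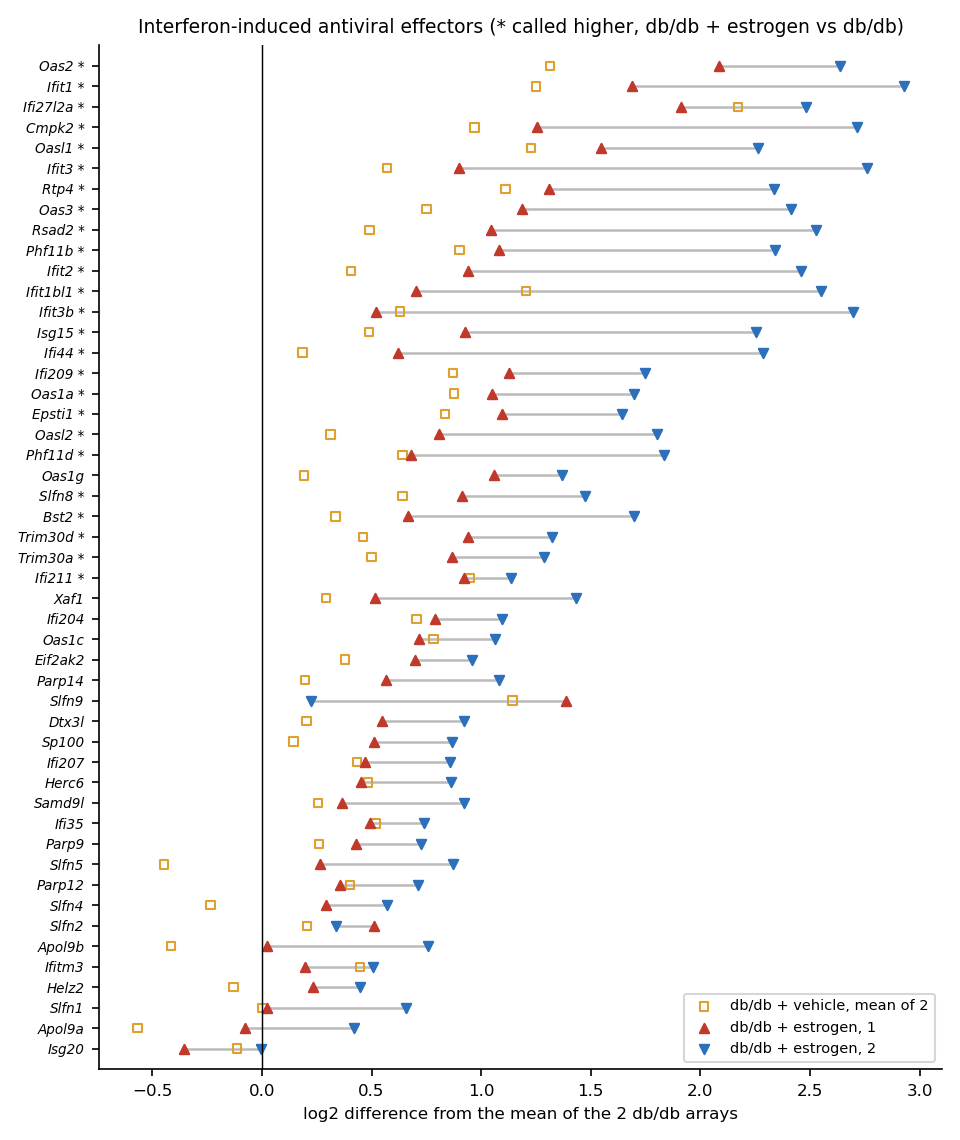
Log2 difference from the mean of the 2 db/db arrays (x axis) for the 49 interferon-induced antiviral effectors tested (y axis, ordered by fold change), for estrogen 1 (upward triangles), estrogen 2 (downward triangles) and the mean of the 2 vehicle arrays (squares), with a star for each of the 25 genes called higher. Estrogen 2 lies to the right of estrogen 1 for 47 of the 49 genes.

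No interferon and no interferon receptor was called. Of the 15 ligands and receptors with a probe, 11 could be tested, with a median of 0.13. Ifnb1, the interferon beta gene, was not well above background on the db/db and estrogen arrays. Ifng, the interferon gamma gene, stood at −6.79 and −8.66 in db/db and −6.31 and −5.86 with estrogen, a difference of 1.64 ± 0.88 (adjusted p = 0.676). Ifnar1 and Ifnar2 differed by −0.01 ± 0.16 and 0.01 ± 0.16.

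Of the 24 genes of interferon signalling and sensing, 5 were called higher (2.56% of all probes were) and none lower, with a median of 0.52. Irf7, the factor that amplifies interferon transcription, stood at −2.48 and −2.74 in db/db, −1.34 and 0.11 with estrogen and −0.32 and −1.51 with vehicle, and rose by 2.00 ± 0.47 (adjusted p = 0.203). Without estrogen 1 Irf7 was 2.73 and without estrogen 2 1.27, still called both times. Usp18, which removes Isg15 from proteins and damps receptor signalling, rose by 2.06 ± 0.36 (adjusted p = 0.0814) and lay 1.14 ± 0.36 above vehicle (adjusted p = 0.873). Stat2 rose by 1.16 ± 0.27, from 0.35 and 0.14 to 1.11 and 1.72, and on estrogen 1 alone it lay less than 2-fold above each db/db array. The RNA sensor gene Dhx58 and the nucleic acid sensor gene Zbp1 rose by 1.43 and 1.27, but were 0.89 and 0.80 without estrogen 2 and then not called. Irf9 differed by 0.71 ± 0.19 and was not called.

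Of the 17 interferon-induced GTPases tested, which attack the vacuoles of intracellular pathogens, 5 were called higher and none lower, where 2.56% of all probes were called higher, with a median of 0.94. Gvin1, Iigp1, Irgm2 and Irgm1 rose by 1.27, 1.23, 1.15 and 1.101. Without estrogen 2 they were 0.94, 0.90, 0.91 and 0.72, and none of these 4 was called, and Irgm2 was 0.996 without db/db 2. For MHC class I presentation 1 of 21 was called, H2-T24 at 1.03 ± 0.44, and for MHC class II 2 of 10, H2-Eb2 at 1.72 ± 0.52 and Ciita, the master regulator of that class, at 1.48 ± 0.60, all of them higher. H2-T24 was 0.63 without estrogen 2 and 0.76 without db/db 2. H2-Eb2 was 1.21 without estrogen 1 and 1.499 without db/db 2. Ciita was 0.67 without estrogen 1, 1.25 without db/db 1 and 1.70 without db/db 2. After normexp background correction none of these 3 genes was called. The class II median was 0.48 with estrogen, and vehicle had 1.08 against the same db/db arrays. Of 7 interferon-induced chemokines Ccl12 was called higher, at 1.16 ± 0.43, and it was 0.95 without estrogen 2, 1.08 without db/db 1 and 1.24 without db/db 2.

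The glandular kallikreins, a cluster of closely related serine proteases, were of the 41 lists the one with the largest share called between estrogen and vehicle. Against db/db, 7 of 13 tested were called higher and none lower, where 2.56% of all probes were called higher. Their median was 1.17 (1.05 on estrogen 1 and 1.46 on estrogen 2). Between estrogen and vehicle 8 of the 13 were called higher and none lower, with a median of 1.05, where 0.507% of all probes were called higher. Against the same db/db arrays vehicle had a median of 0.18 and no member called, where 5.31% of all probes were called higher. The sequences of these genes are so alike that a probe can also take signal from another member. Single members are thus uncertain, and so are the counts, which can hold the same signal more than once.

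Klk1b11 stood at −4.91 and −5.54 in db/db, −2.63 and −1.39 with estrogen and −4.44 and −4.67 with vehicle. It was 3.22 ± 0.79 above db/db (adjusted p = 0.212) and 2.54 ± 0.79 above vehicle (adjusted p = 0.873). Both estrogen arrays lay above the 4 others, and without estrogen 1 or estrogen 2 the difference from db/db was 3.84 or 2.60 and still called. Klk1b27 was not well above background in db/db and was at least 4.35-fold higher with estrogen (adjusted p = 0.0613). Klk1b8 rose by 1.72 ± 0.25, past the adjusted threshold (adjusted p = 0.0484), from −4.77 and −4.68 to −3.23 and −2.78, with vehicle at −3.81 and −4.30. Klk1b24 rose by 1.56 ± 0.24 and lay 1.45 ± 0.24 above vehicle, and Klk1b4 rose by 1.86 ± 0.36. Klk1b16 went apart on the 2 estrogen arrays, at −9.43 and −4.56, and differed by −0.98 ± 1.34. After normexp background correction 3 of the 13 were called higher, and Klk1b27 and Klk1b4 were not. The comparison with vehicle was not run with that correction.

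Signals that recruit neutrophils were lower with estrogen in part. Of 18 genes of neutrophil chemokines and the IL-1 family, 4 were called lower and none higher, with a median of −0.90, where 1.36% of all probes were called lower. The median was −0.26 on estrogen 1 and −1.76 on estrogen 2, and all 18 were lower on estrogen 2 than on estrogen 1. The number called lower was 1 without estrogen 2, 7 without estrogen 1, 2 without db/db 1 and 2 without db/db 2. Against the same db/db arrays, vehicle had a median of −0.41 with 3 called lower and 1 higher. In that comparison 2.2% of all probes were called lower and 5.31% higher. No member was called between estrogen and vehicle.

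Il1b, the interleukin 1 beta gene, stood at 3.80 and 3.75 in db/db, 1.95 and 0.15 with estrogen and 0.94 and 1.16 with vehicle. It fell by 2.73 ± 1.01 on the log2 scale (adjusted p = 0.45), and was −1.83 without estrogen 2, −2.71 without db/db 1 and −2.76 without db/db 2. Cxcl2 and Cxcl1, ligands of the neutrophil receptor Cxcr2, fell by 2.58 ± 0.90 and 1.78 ± 0.60. Cxcl2 went from 1.17 and 1.65 to −0.33 and −2.02 and Cxcl1 from 2.91 and 2.64 to 1.63 and 0.37. Their calls were lost without estrogen 2, at −1.74 and −1.15, and without db/db 2 for Cxcl2, at −2.35, and db/db 1 for Cxcl1, at −1.64. Osm, the cytokine oncostatin M, fell by 2.10 ± 0.47 (adjusted p = 0.182), from −1.02 and −1.78 to −2.93 and −4.08, with vehicle at −2.90 and −3.53. Of these 4 genes Osm alone was called without each of the 4 arrays in turn. Cxcl3 and Il6 were lower on both estrogen arrays than on both db/db arrays but were not called, with −2.94 ± 1.60 and −1.88 ± 0.94.

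Of 22 neutrophil markers, 3 were called lower and 1 higher, where 1.36% of all probes were called lower and 2.56% higher, with a median of −0.01 on estrogen 1 and −1.27 on estrogen 2. In whole wounds, fewer cells of a type and less RNA per cell cannot be told apart. Ltf, the granule protein lactoferrin, stood at −3.61 and −2.52 in db/db, −5.29 and −5.39 with estrogen and −5.49 and −6.06 with vehicle, and fell by 2.28 ± 0.75 (adjusted p = 0.376). Camp, the granule peptide cathelicidin, fell by 2.20 ± 0.81, and Mmp8, the neutrophil collagenase, by 1.95 ± 0.62. Without db/db 2 the 3 genes were −1.73, −1.64 and −1.66 and none was called, and without estrogen 2 Camp was −1.64 and Mmp8 −1.02. Padi4, an enzyme that modifies histones in neutrophils, rose by 1.83 ± 0.60, but was 0.85 without db/db 1 and 1.64 without estrogen 1.

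Among 23 tested genes of matrix metalloproteinases, their inhibitors and related proteases, 6 were called lower and none higher, all of them metalloproteinases, where 1.36% of all probes were called lower, with a median of −0.58. Mmp3, stromelysin 1, stood at 4.98 and 5.80 in db/db, 4.17 and 2.93 with estrogen and 3.59 and 3.27 with vehicle, and fell by 1.84 ± 0.80 (adjusted p = 0.533). Mmp11 fell by 1.42 ± 0.51, from 2.72 and 3.001 to 1.19 and 1.68, with vehicle at 1.31 and 1.28. Mmp2, a gelatinase, Mmp14, which activates it on the cell surface, and Mmp25 fell by 1.15, 1.11 and 1.31, and Mmp8 is given above. For Mmp2 and Mmp14 no values without 1 array are given, which does not mean that their calls held. Their calls did not both hold without db/db 2, nor without estrogen 2. Mmp11 was −1.28 without db/db 2 and −1.17 without estrogen 1, and Mmp25 −1.02 without db/db 2 and −0.98 without estrogen 2. The count was 1 without db/db 2, 2 without estrogen 2 and 7 without estrogen 1. Mmp3 was still called without estrogen 1, and was −1.22 without estrogen 2, −2.25 without db/db 1 and −1.43 without db/db 2. Against the same db/db arrays, vehicle had a median of −0.57 with 5 called lower, where 2.2% of all probes were. No member was called between estrogen and vehicle. Timp1, an inhibitor of these enzymes, stood at 5.59 and 6.11 in db/db and 5.27 and 4.44 with estrogen and was not called (adjusted p = 0.415).

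Mdk, the growth factor midkine, fell by 2.88 ± 0.61 (adjusted p = 0.151), from 1.98 and 1.64 to −1.03 and −1.102, and its other probe gave −3.10 ± 0.58. Ptn, which encodes the related factor pleiotrophin, fell by 2.70 ± 0.87, and was −1.86 without db/db 1. Cck, the peptide cholecystokinin, fell by 3.63 ± 0.81, from −0.71 and 0.31 to −3.79 and −3.86. Fosb, an immediate early transcription factor, fell by 3.45 ± 0.74, from 3.51 and 2.23 to −1.38 and 0.21. Fosb was still called without each of the 4 arrays, at −2.65 without estrogen 1 and −4.25 without estrogen 2. For each of these 4 genes both vehicle arrays lay below both db/db arrays too.

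Il2ra, the alpha chain of the interleukin 2 receptor, fell by 3.03 ± 0.94, and was −2.31 without db/db 2 and −2.63 without estrogen 2. Plekhg4 and Ly6h fell by 2.87 ± 0.83 and 2.83 ± 0.50. Prss35 fell by 2.80 ± 0.99, and its call held without estrogen 1 but was lost without estrogen 2, db/db 1 or db/db 2, at −2.45, −2.78 and −2.81. Gzmd, a granzyme, was measured on both db/db arrays, at −5.31 and −4.47, and was not well above background with estrogen or vehicle, at least 4.78-fold lower with estrogen (adjusted p = 0.0556), and was not called after normexp background correction. Gzmb, the granzyme of cytotoxic lymphocytes, rose by 1.81 ± 0.56, and was 0.94 without estrogen 2. Lgr5, a marker of hair follicle stem cells, fell by 1.73 ± 0.29 (adjusted p = 0.0814), from −1.14 and −0.98 to −3.002 and −2.58, with vehicle at −2.03 and −1.98.

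**Figure D4:**
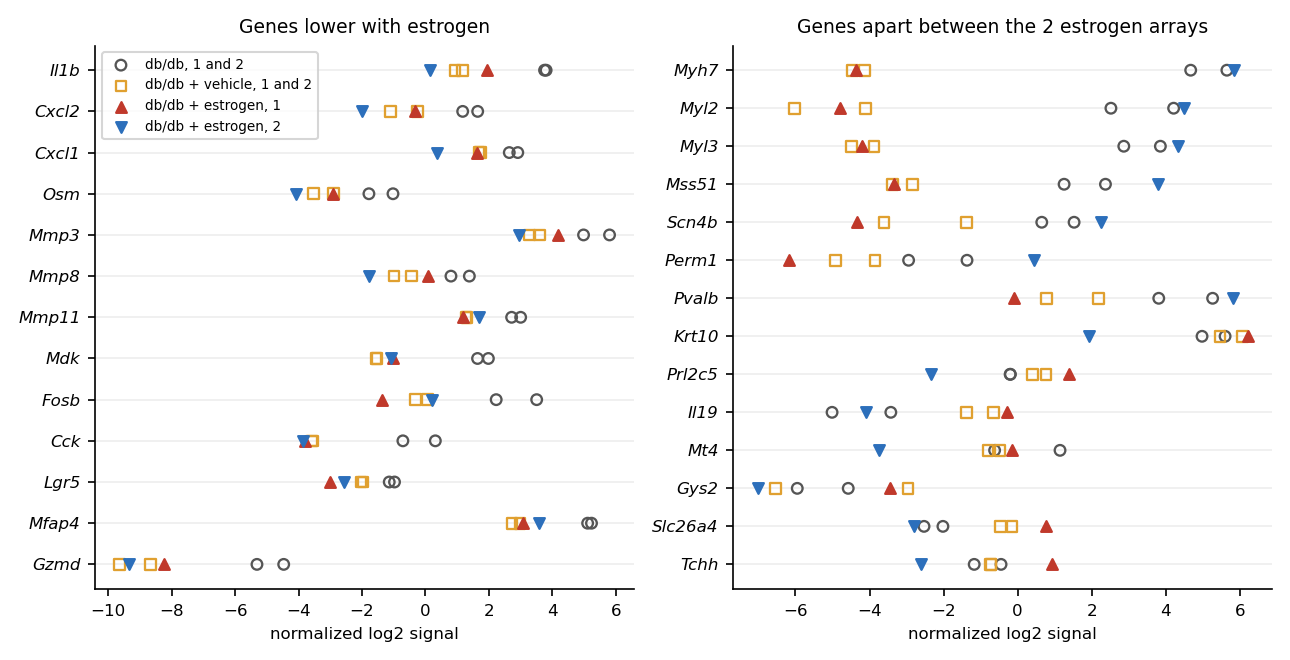
Normalized log2 signal (x axes, 0 is the 75th percentile of the array) of 13 genes lower with estrogen (left) and of 14 genes that set the 2 estrogen arrays far apart (right) on the arrays labelled day 14, with circles for db/db, squares for vehicle, upward triangles for estrogen 1 and downward triangles for estrogen 2. On the right, Myh7 and the 6 muscle genes under it have estrogen 2 above both db/db arrays and estrogen 1 below them.

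Muscle genes set the 2 estrogen arrays furthest apart. Of the 8 probes with the largest excess on estrogen 2, those named were Myh7, Myl2 and Myl3, which encode the heavy and light chains of slow muscle myosin, Mss51, Scn4b, Perm1 and Pvalb, a calcium buffer of fast muscle with 2 probes. Myh7 stood at −4.37 and 5.84 on estrogen 1 and 2, at 5.65 and 4.67 in db/db and at −4.47 and −4.14 with vehicle. Estrogen 1 thus lay with vehicle and estrogen 2 with db/db. The fitted difference of Myh7 between estrogen and db/db was −4.43 ± 3.16 (adjusted p = 0.789), and none of the 14 slow or 24 fast muscle genes was called. The medians were −2.06 and −2.32 on estrogen 1 and 0.82 and 0.89 on estrogen 2, in this order, and all 24 fast muscle genes were higher on estrogen 2. Without estrogen 2, 6 slow and 21 fast muscle genes were called lower. The part of muscle RNA in the other results was not tested.

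Epidermal genes went the other way. All 35 tested genes of the granular layer and barrier, all 19 of wound-activated keratinocytes and 17 of the 18 of epidermal keratinocytes were higher on estrogen 1 than on estrogen 2. Krt10, a keratin of the differentiated epidermis, stood by the probe of largest difference at 6.21 and 1.94 on estrogen 1 and 2, at 4.98 and 5.60 in db/db and at 6.07 and 5.46 with vehicle. The others with the largest excess on estrogen 1 were Prl2c5 with 2 probes, Il19, Mt4, Gys2, Slc26a4 and Tchh. The medians against db/db on estrogen 1 and 2 were 0.89 and −0.73 for the granular layer, 1.37 and −0.02 for wound-activated and 0.98 and 0.22 for epidermal keratinocytes. The part of epidermal RNA in the other results was not tested.

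Of the keratinocyte genes, 3 of 18 epidermal and 2 of 19 wound-activated members were called higher, none was called lower, and none of 35 was called for the granular layer, where 2.56% of all probes were called higher. Trp63, the master factor of basal keratinocytes, rose by 1.16 ± 0.38, from 0.50 and 1.18 to 2.50 and 1.49. Col17a1 and Dsg3, which anchor these cells to the basement membrane and to each other, rose by 1.04 ± 0.32 and 1.32 ± 0.40, Krt17, a keratin of wounded epidermis, by 1.26 ± 0.45 and Sprr2b, a cornified envelope protein, by 2.51 ± 0.72. Without estrogen 1 the 5 genes were 0.66, 0.72, 0.85, 0.67 and 1.67, and none was called. Without db/db 1, Trp63, Col17a1, Dsg3 and Krt17 were 0.82, 0.85, 0.82 and 1.21 and not called, and Krt17 was 1.30 without db/db 2. Against the same db/db arrays, the vehicle medians of the epidermal and wound-activated lists were 1.04 and 1.74, with 7 and 5 members called higher. Over all probes, vehicle had 5.31% called higher there.

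**Figure D5:**
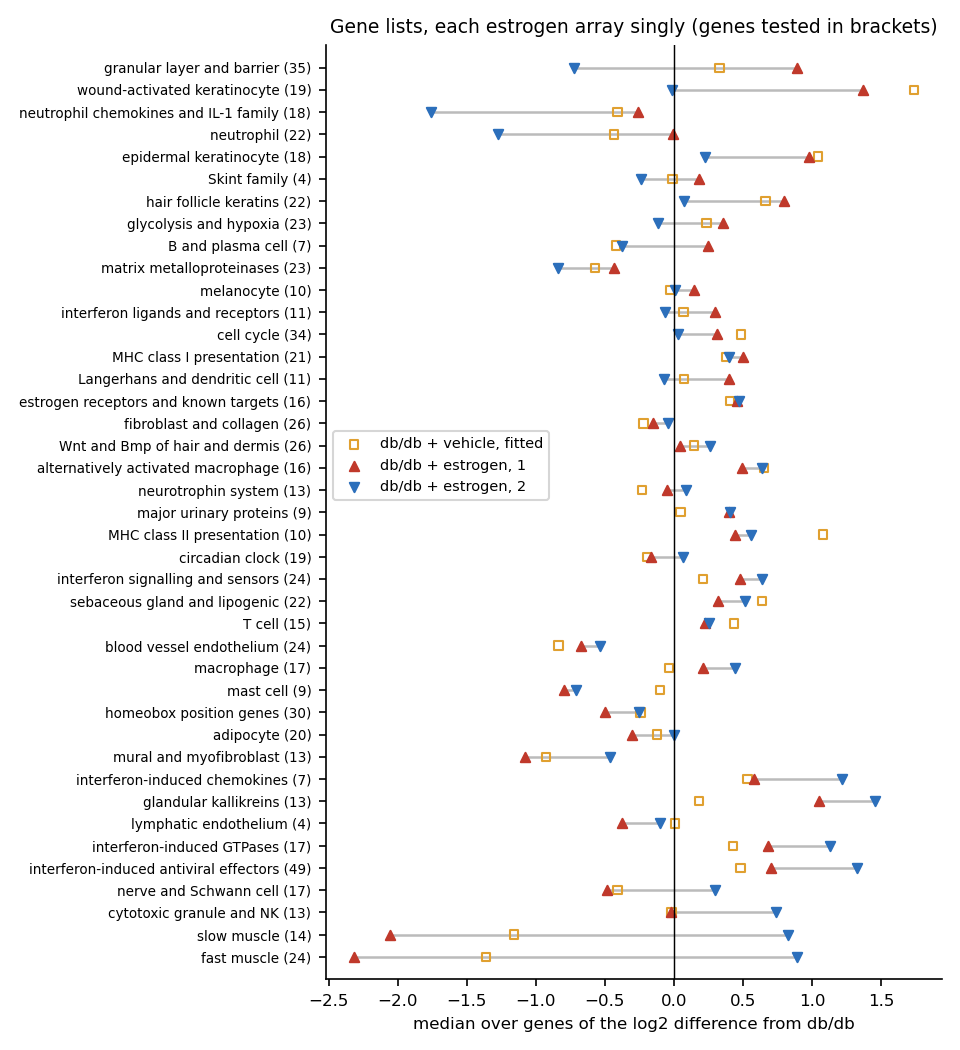
Median log2 difference from db/db (x axis) over the tested genes of each of 41 lists (y axis, number tested in brackets), for estrogen 1 (upward triangles), estrogen 2 (downward triangles) and the fitted vehicle change (squares), ordered by the difference between the estrogen arrays. Barrier and neutrophil lists at the top lie further left on estrogen 2, and the muscle lists at the bottom lie further left on estrogen 1.

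Of 17 macrophage markers, 1 was called higher and 1 lower, where 2.56% and 1.36% of all probes were. Marco, a scavenger receptor, stood at −1.36 and −0.97 in db/db, 2.12 and 1.202 with estrogen and 3.59 and 2.70 with vehicle, and rose by 2.82 ± 0.66 (adjusted p = 0.203). The estrogen arrays of Marco lay below both vehicle arrays, with a difference of −1.49 ± 0.66 (adjusted p = 0.873). Cd14, the co-receptor for bacterial lipopolysaccharide, fell by 1.41 ± 0.42, from 4.45 and 4.49 to 3.51 and 2.62, and was −0.96 without estrogen 2. Of 16 genes of alternatively activated macrophages, Clec10a, a lectin, was called higher, at 1.43 ± 0.38. Chil3, Arg1 and Mrc1, which mark that state, differed by −0.52 ± 0.63, −0.33 ± 0.49 and 0.54 ± 0.52 and were not called. Retnla, of the same state, stood at −4.38 and −4.12 in db/db, −2.88 and −3.01 with estrogen and −2.83 and −0.9999 with vehicle. Its difference of 1.30 ± 0.64 between estrogen and db/db (adjusted p = 0.617) was not called. The median of the 16 genes against db/db was 0.58 with estrogen and 0.65 with vehicle. With vehicle 4 of the 16 were called higher and none lower, where 5.31% of all probes were called higher. Between estrogen and vehicle their median was −0.45 and none was called.

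Among other leukocytes, none of 15 T cell, 7 B and plasma cell, 11 Langerhans and dendritic cell and 4 Skint genes was called, with medians of 0.26, −0.02, 0.19 and 0.09. All 9 tested mast cell genes had values below 0, between −1.95 and −0.42. Their median was −0.69, against 0.05 over all probes. Against the same db/db arrays, vehicle had a median of −0.10 with 1 called lower, where 2.2% of all probes were. Hdc, which makes histamine, was the 1 gene called with estrogen, at −1.95 ± 0.57, where 1.36% of all probes were called lower. Hdc was −1.31 without estrogen 2.

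Against the same db/db arrays, vehicle had a median of −0.835 over 24 markers of blood vessel endothelium. With vehicle 5 of them were called lower, where 2.2% of all probes were. Between estrogen and vehicle the median was 0.27 and none was called. Against db/db, estrogen had 2 of the 24 called lower, where 1.36% of all probes were, with a median of −0.58. Apln, the ligand of the apelin receptor, fell by 1.34 ± 0.43, and was −0.76 without estrogen 2. Esm1, a marker of sprouting tip cells, fell by 1.19 ± 0.49, and its call was lost without any 1 of the 4 arrays, at −1.36 and −1.03 without estrogen 1 and 2 and −1.26 and −1.12 without db/db 1 and 2. Of 13 mural and myofibroblast genes 3 were called lower, with a median of −0.83. They were the contractile genes Cnn1 and Actg2, at −1.40 and −1.28, and Tnc, a matrix protein of wounds, at −1.24. With vehicle the median of the mural and myofibroblast genes was −0.93 against the same db/db arrays, with 3 called lower. None of these genes was called between estrogen and vehicle. Cnn1 was −1.01 without db/db 1 and −0.93 without estrogen 1. Actg2 was −0.82 without db/db 1, −1.103 without estrogen 1 and −1.46 without estrogen 2. Tnc was −0.64 without estrogen 2 and −0.86 without db/db 2. Of 26 fibroblast and collagen genes 1 was called lower, Mfap4, a microfibril protein, which fell by 1.84 ± 0.35 (adjusted p = 0.121), from 5.24 and 5.11 to 3.09 and 3.59, with vehicle at 2.98 and 2.72. None of 4 lymphatic genes was called.

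In lipid and appendage genes the calls with estrogen against db/db were scattered, where 2.56% of all probes were called higher and 1.36% lower. Of 22 sebaceous and lipogenic genes, Scd3, a fatty acid desaturase, rose by 1.60 ± 0.38, Elovl3, an elongase of sebum lipids, by 1.66 ± 0.58, and Mogat2 fell by 1.90 ± 0.49. Elovl3 was 1.25 without estrogen 2 and 1.44 without db/db 2. Of 20 adipocyte genes Adrb3 was called at 1.36 and Rbp4 at −1.11. They were 1.14 and −0.69 without estrogen 2 and 0.55 and −0.95 without db/db 2, and were then not called. Adrb3 was still called without db/db 1, at 2.17. Of 22 hair keratin genes Krt36 was called higher, at 3.06 ± 0.83, and Krt82, not well above background in db/db, was at least 1.75-fold higher. The call of Krt82 was lost with a floor on dim signals, with normexp background correction, and without db/db 1 or estrogen 1. Of 10 melanocyte genes Mlana was called lower, at −1.92 ± 0.80. It was −1.42 without db/db 1, −2.11 without estrogen 1 and −1.74 without estrogen 2. With vehicle against db/db, 9 of the 22 sebaceous and lipogenic genes were called higher and 1 lower. Of 21 hair keratin genes, vehicle had 6 called higher and none lower. Over all probes vehicle had 5.31% called higher and 2.2% lower. The medians of these 2 lists were 0.64 and 0.66 with vehicle and 0.40 and 0.47 with estrogen. Between estrogen and vehicle each list had none called higher and 1 lower, where 0.476% of all probes were called lower.

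Of 26 Wnt and Bmp genes of hair and dermis, Wnt2 was called higher at 2.06 ± 0.72 and Wnt10b at 1.0005 ± 0.40, and Lgr5 lower as above, where 2.56% of all probes were called higher and 1.36% lower. Wnt2 was 1.63 without db/db 2 and 1.98 without estrogen 1, and Wnt10b was 0.83 and 0.65, respectively. Of 13 genes of the neurotrophin system, Sorcs2, a co-receptor, was called beside Ngfr, at −1.13 ± 0.48, and was −0.74 without estrogen 2, −1.16 without db/db 1 and −1.11 without db/db 2. The call of Sorcs2 was also lost with the replicate block. Of 19 clock genes Hlf was called, at −1.11 ± 0.44, and was −0.71 without estrogen 1 and −0.92 without db/db 1. None of 34 cell cycle, 23 glycolysis and hypoxia and 9 major urinary protein genes was called, with medians of 0.17, 0.19 and 0.39.

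The study lists 20 genes for these arrays, and since it chose them on these same arrays, their values are no independent evidence of a direction. Of the 17 that could be tested, 5 were called higher, Olfr792, Olfr1303, Klk1b11, Klk1b27 and Zdhhc25, and 6 lower. Zdhhc25, an acyltransferase gene, was well above background on both estrogen arrays, at −6.68 and −6.07, and on no db/db or vehicle array, at least 1.85-fold higher than db/db, a bound under 2-fold. Its call was lost with a floor on dim signals and with normexp background correction. Stra6, a retinol transporter, stood at −1.02 and −1.07 in db/db, −2.70 and −3.09 with estrogen and −1.18 and −2.89 with vehicle. Bcan, a brain proteoglycan, stood at −1.35 and −1.56, −2.48 and −3.44 and −1.77 and −1.94, and was −1.104 ± 0.49 relative to vehicle (adjusted p = 0.873). Without estrogen 2, Stra6 was −1.66 and Bcan −1.02, and without db/db 1 Bcan was −1.40. Brinp3 and Iqsec3 differed from db/db by −2.40 ± 0.77 and −1.82 ± 0.49, and Brinp3 was −2.10 without db/db 1. Iqsec3 was still called without estrogen 1, at −1.16, but not after normexp background correction. Krt77, a keratin of the epidermis and sweat ducts, stood at −0.55 and −2.59 in db/db and −4.15 and −5.08 with estrogen, and its difference of −3.05 ± 1.82 (adjusted p = 0.718) was not called.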

How the data were processed

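Wound RNA was hybridised to one-colour Agilent mouse arrays. The authors scanned them and extracted the deposited intensity values with Agilent Feature Extraction 11.0.1.1, and deposited a table of intensity ratios to each array's 75th percentile on a linear scale, without log2. The log2 of the processed intensity minus that of the array's 75th percentile over non-control probes was computed here from the deposited intensity files. Spots of 1 probe were averaged, control spots and outlier spots were left out, and a probe was tested where either group compared had it well above background on its 2 arrays. The 8 groups of 16 arrays were fitted with limma 3.58.1 in R 4.3.3 (8 residual degrees of freedom), with Benjamini-Hochberg adjustment over the probes tested, and the fit was tested on simulated data. A gene in a list was given by its probe of highest mean signal over the 16 arrays.

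The members and lists were chosen with earlier results of these data known. Genes were named where they passed the adjusted threshold, were among the 10 largest changes each way whose groups did not overlap (well above background on all 4 arrays), were up to 4 called members of a list (the 2 brightest where none was called), were fixed receptor and macrophage genes, were among the 8 probes each way that set the estrogen arrays furthest apart, or were listed by the study. Other genes were named after their values were seen. Replicate numbers did not pair the samples: deviations of same-numbered estrogen and db/db arrays correlated at −0.42. For estrogen and vehicle arrays the correlation was 0.26, and there arrays of the same number also shared a slide. Alternatives were normexp, quantile normalization, other filters, a floor, the deposited table, the 4 arrays alone, slide and replicate blocks, and each array left out. Arrays of WT and of labelled day 7 entered the estimate of spread, single levels and the test between labelled days. Results on a few genes are not reported here. Precision is limited by 2 arrays a group.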

Additional observations from a re-analysis of the deposited data

Results flagged for a closer look

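For 3 of the genes named above the estrogen effect against db/db differed between labelled day 14 and labelled day 7 in the limma interaction test (29 of 30430 probes had an adjusted p below 0.05). Arrays of different labelled days were also scanned on different days, and day and scan cannot be told apart.

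The effect on Defb3 on labelled day 14 minus that on labelled day 7 was 9.67 on the log2 scale (adjusted p = 0.0239). On labelled day 7 Defb3 stood at −3.04 and −2.96 in db/db and −9.28 and −9.56 with estrogen, where neither estrogen array was well above background, so that 9.67 is neither a measured size nor a bound. Defb3 was at least 18.7-fold lower with estrogen there, and its rise on labelled day 14 is given above. For Sprr2b the difference was 7.88 (adjusted p = 0.0395), with labelled day 7 at −4.55 and −2.91 in db/db and −9.27 and −8.92 with estrogen. The estrogen arrays of labelled day 7 were again not well above background, so that 7.88 is no measured size, and Sprr2b was at least 11.2-fold lower with estrogen there. The rise of Sprr2b on labelled day 14 was lost without estrogen 1.

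For 4933402J15Rik the difference was 7.36 (adjusted p = 0.0239). It was well above background on 1 of the 2 db/db arrays of labelled day 7, which stood at −6.06 and −7.91, on neither estrogen array of that day, at −9.02 and −9.47, and on neither db/db array of labelled day 14. The value 7.36 thus rests on background signal on both days and is neither a measured size nor a bound.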

How the results depend on the processing

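The 103 called probes of named genes leave out genes named after their values were seen, such as Ifit3, Stat2 and Mmp2. None of the 103 reversed under the alternatives run for single probes, though they were chosen as called on these same arrays. The filter for probes well above background on all 4 arrays left 86 of them to compare, and the crossed replicate block was run for counts alone. The number of probes called, 1105, was 542 with normexp background correction, 1677 with no filter on dim probes and 28 with Benjamini-Hochberg adjustment, and 894 to 1984 with 1 array left out. The number past the adjusted threshold, 28, was 9 with probes well above background on all 4 arrays, 0 with the 4 arrays alone (1070 then called at an unadjusted p), 8 with slide as a fixed block, 44 with the spread estimated on the tested probes alone, and 8 to 59 with 1 array left out. With the replicate block it was 14 and with the crossed replicate block, chosen after seeing the data like the spread on tested probes, 15, while 1067 and 1052 probes were called. The share of calls higher, 65.3%, was 53.47% with quantile normalization and 54.79% to 64.54% with 1 array left out.

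Slide as a fixed block left 1 neutrophil chemokine or IL-1 gene and 3 metalloproteinases called lower, and normexp left 3 kallikreins called higher. With 1 array left out, the ranges were 13 to 29 antiviral effectors, 3 to 5 estrogen receptor genes and targets, 5 to 8 kallikreins, 1 to 7 neutrophil chemokine and IL-1 genes, and 1 to 7 metalloproteinases. Of the 103 calls, 71 were kept without estrogen 2, 84 without estrogen 1, 80 without db/db 1, 78 without db/db 2, 83 with normexp and 100 with the replicate block. Among named genes, calls were lost with normexp for Adrb3, Ciita, Gabra2, Gzmd, H2-Eb2, H2-T24, Hlf, Iqsec3, Klk1b27, Klk1b4, Krt82, Mmp25, Nexmif, Olfr1303, Olfr792, Wnt10b, Zdhhc25 and ccdc198, with quantile normalization for Ciita, Col17a1, Esm1, H2-T24, Mlana, Sorcs2 and Wnt10b, with a floor on dim signals for Krt82 and Zdhhc25, with the 4 arrays alone for Adrb3, Areg, Ciita, Dsg3, Gzmb, H2-T24, Krt17, Mmp8, Padi4, Tnc and Trp63, with slide as a fixed block for Actg2, Adrb3, Apln, Brinp3, Camp, Ccl12, Cxcl1, Cxcl2, Elovl3, Esm1, H2-T24, Il1b, Irgm1, Irgm2, Ltf, Mlana, Mmp25, Mmp3, Mmp8, Prss35, Rbp4, Sorcs2 and Tnc, with slide as a random block for Ciita and Wnt10b, and with the replicate block for Actg2, H2-T24 and Sorcs2. The causes were not tested. Probes near background carry only bounds.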
